A study of Caenorhabditis elegans with 4 samples.

Results

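The core sex determination pathway of C. elegans was followed through 10 genes, chosen by name with no measured value in the rule, although earlier results of these data were known. These are the switch gene xol-1, the ligand gene her-1, the receptor gene tra-2 with the protease gene tra-3, the genes fem-1, fem-2 and fem-3, the terminal regulator gene tra-1, and the germline genes fog-1 and fog-3. All 10 were on the array, where they are 10 of 20040 genes and account for 17 of 23180 transcripts. RNA was taken from 4 samples of a single group, early embryos of the wild-type strain N2, with no mutation, transgene or treatment named in the labels. Gravid adults were grown in liquid culture and dissolved with bleach to free the embryos, so each sample is a mixture of early stages and of all cells of the embryo. According to the methods, the 4 replicates were separate embryo preparations, and a NimbleGen expression array with 1 dye was used for each. With 1 group there is no condition to compare. The question these data address is what signal the RNA of each gene gave in the early embryo, and how far the 4 samples differ.

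In C. elegans, embryos with a pair of X chromosomes become hermaphrodites and embryos with a single X become males, and self-fertilized hermaphrodites yield almost only the former. The number of X chromosomes is read through xol-1, which is active in male embryos and there represses the SDC proteins, whereas in hermaphrodite embryos the SDC proteins repress her-1. HER-1 is a secreted protein that inactivates the receptor TRA-2. Where TRA-2 is active it holds back the FEM proteins, which otherwise direct the zinc finger protein TRA-1 to degradation. TRA-1 represses genes of male development in the soma, and fog-1 and fog-3 commit germ cells to making sperm. Part of the pathway acts through RNA and protein that the mother places in the oocyte.

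Values are intensities that the authors had normalized between arrays by quantiles and combined over the probes of a transcript (3 probes for every transcript named here) with the Robust Multichip Average (RMA) algorithm. They are given as log2 intensities. For a gene with several transcripts on the array, the log2 values of its transcripts were averaged. Probes bind with different strength, so a difference in intensity between genes, or between transcripts of 1 gene, is not a ratio of RNA amounts, and a lower value cannot tell fewer cells with the RNA from less RNA per cell. The files contain no detection call. As a reference for low signal, a gene was called above the serpentine receptor level when, in each of the 4 samples, it was brighter than all but the top 2.5% of the 1343 genes for serpentine chemoreceptors of mature neurons, a log2 value of 8.47 to 8.70 depending on the sample.

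The median intensity of the arrays was 313 to 351, and Pearson's correlation between samples across genes was 0.968 to 0.992. The 3 pairs that include replicate 4 had correlations of at most 0.973, against at least 0.985 for the other 3 pairs. In replicate 4 the median serpentine receptor gene had a log2 value of 5.41, against 4.74, 4.74 and 4.81 in replicates 1 to 3, so dim signals were brighter in that sample. Markers of the labelled stage were present, with all 12 genes for maternal RNA of the early embryo above the serpentine receptor level, from skn-1 at 12.89 to spn-4 at 15.47. Of 9 genes for early zygotic RNA, 5 were above it, the highest of the 9 being tbx-38 at 13.60 and the lowest, which was not above it, med-1 at 7.97. None of the 6 yolk protein genes of the adult intestine was above it. Of 7 cuticle genes of larvae and adults, 2 were, dpy-7 at 11.69 and sqt-3 at 12.67. The summed intensity of the 7 was 5396 in replicate 3 against 12330 to 13120 in the others. Both dpy-7 and sqt-3 were lowest in replicate 3, at 10.81 and 11.66. The median log2 value of the 7 genes was instead highest in replicate 3, at 6.27 against 5.53 to 5.59. Whether the RNA of dpy-7 and sqt-3 came from the embryos or from later animals was not tested. Of 37 sperm genes, 14 were above the serpentine receptor level, against 42% of all genes on the array. The summed intensity of the 37 was 12277, 11985, 18829 and 27884 in replicates 1 to 4. Most of the 37 are msp genes, close relatives whose RNA the probes of each may also detect. The sum may therefore count the same RNA repeatedly.

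Most of the pathway gave a signal above the serpentine receptor level in early embryo RNA. Of the 10 genes, 8 were called above it, against 42% of all genes on the array, and the exceptions were her-1 and fog-3. The median of the 10 genes lay at percentile 71.5 of all genes, with a range from percentile 50.4 for her-1 to percentile 92.0 for fem-2. In log2 intensity, the median of the 10 genes was 11.77 and that of all genes was 7.82. The genes fem-2, tra-3 and fem-3 were above percentile 80 of all genes. The SD over the samples was below that of the median gene of the array (0.35) for 8 of the 10 genes, the others being her-1 and fog-3. By definition, as many genes of the array lie below that median as above it. The median also covers dim genes, whereas the 8 genes were all above the serpentine receptor level. For tra-2 and tra-1 the SD was only slightly lower, at 0.34 and 0.33.

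**Figure D1:**
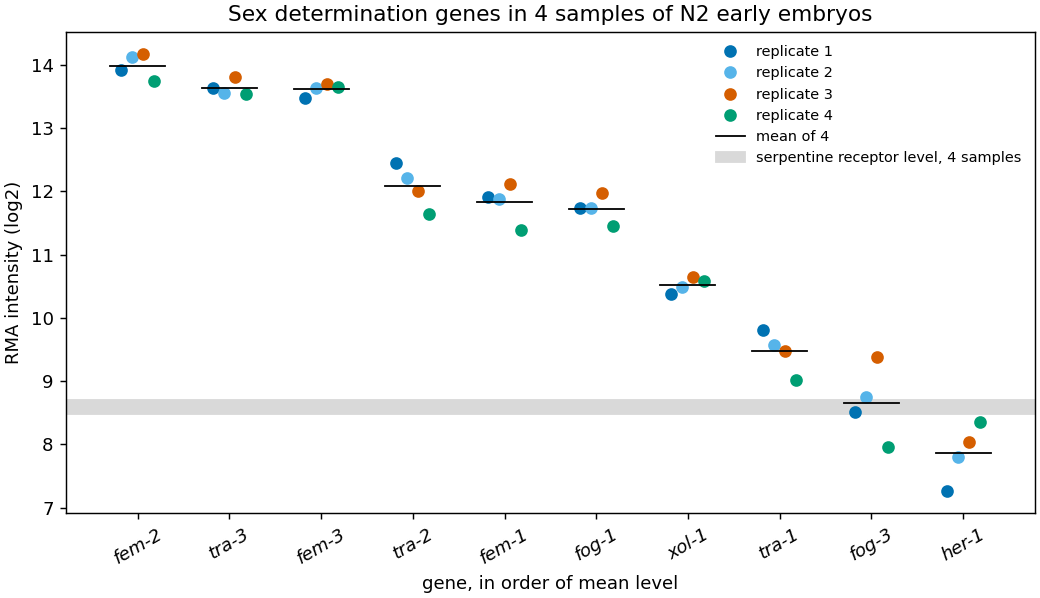
Log2 RMA intensity of the 10 sex determination genes in each of the 4 samples, with 1 point per replicate, the mean as a black line and the range of the serpentine receptor level over the samples in grey. The genes run from fem-2 at 13.98 down to her-1 at 7.87, which lay under the level in every sample.

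In order of mean level, the genes were fem-2, tra-3, fem-3, tra-2, fem-1, fog-1, xol-1, tra-1, fog-3 and her-1. Neighbours in this order were taken to differ beyond their spread when the difference had the same sign in all 4 samples and its mean exceeded its SD. By this measure 5 steps held, with a mean log2 difference of 0.35 ± 0.16 (SD, n = 4) from fem-2 to tra-3, 1.54 ± 0.42 from fem-3 to tra-2, 1.20 ± 0.22 from fog-1 to xol-1, 1.05 ± 0.42 from xol-1 to tra-1 and 0.82 ± 0.52 from tra-1 to fog-3. A probe binds with the same strength in all samples, so a step that held is a difference in array signal and does not show that the RNA amounts differ. The other 4 steps did not hold. These were tra-3 to fem-3, tra-2 to fem-1, fem-1 to fog-1, and fog-3 to her-1, which differed by 0.78 ± 0.81. The place of tra-2, fem-1 and fog-1 depends on how their transcripts are combined, as described with the transcripts.

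**Figure D2:**
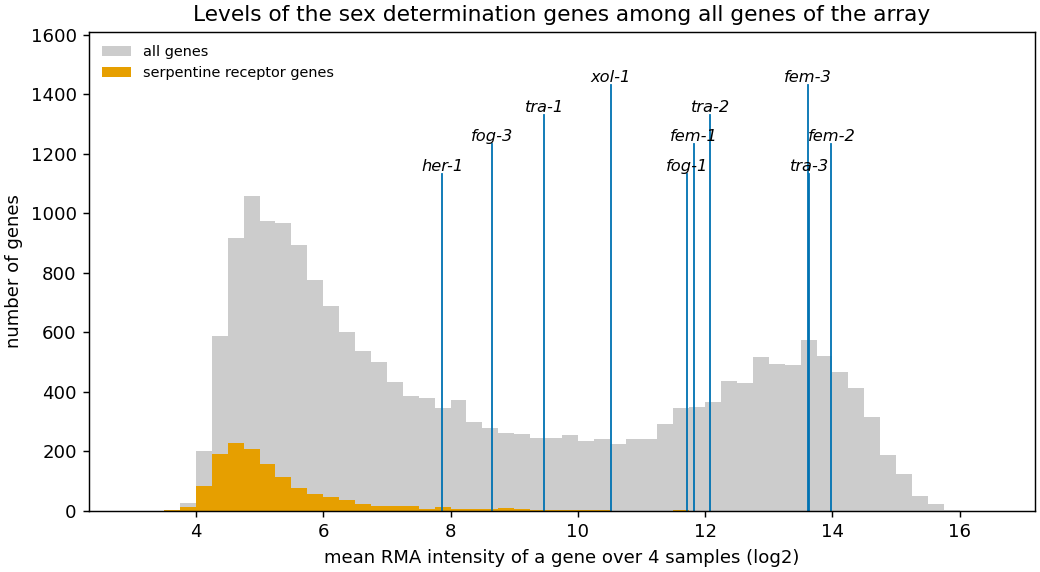
Number of genes at each mean log2 RMA intensity over the 4 samples, for all 20040 genes (grey) and the 1343 serpentine receptor genes (orange), with each sex determination gene marked by a blue line whose height has no meaning. her-1, fog-3, tra-1 and xol-1 lie between the low and the high peak of the array, whereas fem-3, tra-3 and fem-2 lie in the high peak.

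At the top of the cascade, the switch gene xol-1 gave an intermediate signal and the ligand gene her-1 a low one. xol-1, which lies on the X chromosome and encodes a protein related to small-molecule kinases, had log2 values of 10.37, 10.49, 10.65 and 10.58 in replicates 1 to 4. Its mean was 10.52 ± 0.12 (SD, n = 4), at percentile 64.7, and it lay 1.87 to 1.95 above the serpentine receptor level of the same sample. All 3 of its transcripts on the array passed that level in each sample. Transcript C18A11_5a had intensities of 1582, 1792, 1778 and 1957, and the corresponding values were 1451, 1599, 1879 and 1737 for C18A11_5c. Transcript C18A11_5b was the dimmest, with 1013, 1040, 1244 and 1047. The 4 samples thus gave nearly the same level for each xol-1 transcript, with at most a 1.30-fold difference between the brightest and dimmest sample.

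her-1, on chromosome V, was the lowest of the 10 genes and the only one that failed to reach the serpentine receptor level in any sample. Its log2 values were 7.27, 7.81, 8.04 and 8.36, with a mean of 7.87 ± 0.46 (SD, n = 4), which is at percentile 50.4 and 0.34 to 1.20 below that level. Its transcripts behaved differently across the samples. ZK287_8a had intensities of 205, 260, 236 and 199, a 1.31-fold range. ZK287_8b had 116, 192, 295 and 543, a 4.67-fold range, and passed the level in replicate 4 alone. ZK287_8a was thus the brighter of the pair in replicates 1 and 2, and ZK287_8b in replicates 3 and 4. Replicate 4 is also the sample in which dim serpentine receptor genes and the summed sperm genes were brightest, and the part of this in the value of ZK287_8b was not tested.

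The protease gene tra-3 and 1 transcript of the receptor gene tra-2 gave a high signal. TRA-2 is the membrane receptor of HER-1, and its transcript C15F1_3a was the brightest of all 17 transcripts, with intensities of 34784, 28729, 25433 and 22595 in replicates 1 to 4, or a log2 value of 14.75 ± 0.27 (SD, n = 4). The other transcript, C15F1_3b, had intensities of 901, 785, 668 and 450. Both transcripts had their highest value in replicate 1 and their lowest in replicate 4, and both were above the serpentine receptor level in all 4 samples. The average of the transcripts was 12.08 ± 0.34, at percentile 73.7, a value that neither transcript has. In the RefSeq annotation tra-2, on chromosome II, overlaps the homeobox gene ceh-38, which had a level of 13.71 ± 0.21. TRA-3 is a calpain-type protease that cleaves TRA-2. The gene tra-3, on chromosome IV, has a single transcript on the array and had intensities of 12743, 12046, 14283 and 11926. Its log2 level was 13.63 ± 0.12, at percentile 88.3, and the samples differed by 1.20-fold at most.

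All 3 fem genes were above the serpentine receptor level. FEM-2 is a protein phosphatase, and fem-2, on chromosome III, was the highest of the 10 genes at gene level, with intensities of 15381, 17777, 18377 and 13720 and a log2 level of 13.98 ± 0.20 (SD, n = 4), at percentile 92.0. fem-3, on chromosome IV, encodes a protein that binds FEM-2 and is bound by TRA-2. It had intensities of 11417, 12712, 13250 and 12835 and a level of 13.61 ± 0.09, the smallest SD of the 10 genes. FEM-1 has ankyrin repeats and links the complex to a ubiquitin ligase. The transcript F35D6_1a of fem-1, also on chromosome IV, had intensities of 13670, 15583, 17311 and 11492, and its transcript F35D6_1b had 1081, 911, 1145 and 618. Their average was 11.82 ± 0.31, at percentile 71.9. For the brighter transcript the log2 level was 13.81 ± 0.25, which is between those of fem-2 and fem-3. Replicate 3 was the highest sample for each of the 3 genes, and replicate 4 was the lowest for fem-1 and fem-2 and replicate 1 for fem-3.

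tra-1, whose zinc finger protein of the GLI family is the final output of the cascade in the soma, was dimmer on the array than the fem genes that act just upstream. On the log2 scale tra-1, on chromosome III, had values of 9.82, 9.57, 9.48 and 9.02, with a mean of 9.47 ± 0.33 (SD, n = 4), at percentile 59.7. It lay 0.32 to 1.34 above the serpentine receptor level. With the 99th percentile of the receptor genes as the level, tra-1 was no longer called. Transcript Y47D3A_6a had intensities of 1229, 1032, 614 and 610, so replicates 1 and 2 were both brighter than replicates 3 and 4, and the range was 2.02-fold. Transcript Y47D3A_6b had 660, 557, 833 and 445 and was highest in replicate 3. The difference between the transcripts, 0.45 ± 0.63, was smaller than its spread.

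Of the germline genes, fog-1 had 1 bright and 1 dim transcript and fog-3 was near the serpentine receptor level. FOG-1 is an RNA-binding protein of the CPEB family. Transcript Y54E10A_4a of fog-1, on chromosome I, had intensities of 16946, 17147, 22072 and 13989, a log2 value of 14.08 ± 0.27 (SD, n = 4). The other transcript, Y54E10A_4b, had 684, 676, 731 and 560, and the average was 11.72 ± 0.21, at percentile 71.1. In the RefSeq annotation fog-1 overlaps rom-5, a rhomboid family gene, which had a level of 12.66 ± 0.29. fog-3 lies on the same chromosome and encodes a protein of the Tob family. It has 1 transcript, with intensities of 364, 431, 669 and 248 and a level of 8.65 ± 0.59, at percentile 55.4, the largest SD of the 10 genes. It was above the serpentine receptor level in replicates 1, 2 and 3, by 0.69 (log2) at most, and 0.75 below it in replicate 4. In replicate 1 it was barely above, at 8.51 against a level of 8.47. Without replicate 4, fog-3 was called and 9 of the 10 genes were above the level. The summed intensity of the sperm genes was highest in replicate 4, the sample in which fog-3 and fog-1 were lowest, and the part of one in the other was not tested.

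The array has several transcripts for 6 of the 10 genes, and for tra-2, fog-1 and fem-1 these differed widely. The a transcript exceeded the b transcript by 5.34 ± 0.21 on the log2 scale for tra-2 (SD, n = 4), by 4.71 ± 0.14 for fog-1 and by 3.97 ± 0.24 for fem-1. In intensity these are ratios of 36.6 to 50.2 in single samples for tra-2, 24.8 to 30.2 for fog-1 and 12.6 to 18.6 for fem-1, with the same direction in 4 of 4 samples. Among the 2193 genes of the array with several transcripts, the median difference between the highest and the lowest transcript was 0.53, and 3.51%, 4.51% and 6.57% of these genes had a difference at least as large as tra-2, fog-1 and fem-1. For xol-1 the highest and lowest transcript differed by 0.71 ± 0.17, in the same direction in 4 of 4 samples, and 44.0% of the genes had at least this difference. Neither tra-1 nor her-1 had a difference beyond its spread. In all, 14 of the 17 transcripts passed the serpentine receptor level in each sample, against 45.4% of all transcripts, and the 3 that were not are the transcripts of her-1 and fog-3. When the highest transcript stands for a gene, tra-2 becomes the highest of the 10 genes, followed by fog-1 at 14.08, fem-2 at 13.98 and fem-1 at 13.81, and the median of the 10 genes moves from percentile 71.5 to percentile 87.1. The isoform letters are those of the array, and which current isoform each one stands for is not given in the sources used here.

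**Figure D3:**
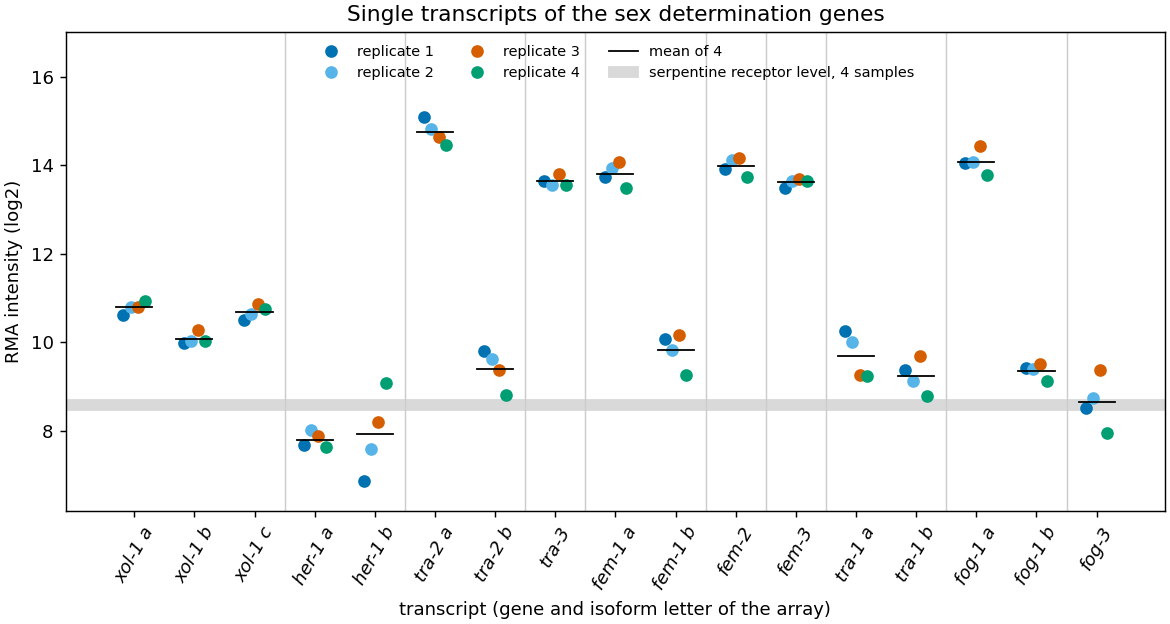
Log2 RMA intensity of each of the 17 transcripts in the 4 samples, grouped by gene from the top of the cascade to the germline genes, with the mean as a black line and the serpentine receptor level in grey. The a and b transcripts of tra-2, fem-1 and fog-1 lie far apart in every sample, those of xol-1 and tra-1 lie closer, and those of her-1 change order between the samples.

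The samples did not deviate in the same way for all 10 genes, but replicates 3 and 4 stood apart for most of them. The highest value was in replicate 3 for 7 of the 10 genes, against 33.6% of all genes, the others being tra-1 and tra-2, which were highest in replicate 1, and her-1, which was highest in replicate 4. The lowest value was in replicate 4 for 7 of the 10 genes, against 31.6% of all genes, the others being xol-1, her-1 and fem-3, which were lowest in replicate 1. These samples were singled out after their values were seen. From a gene's own mean over the samples, the 10 genes deviated by a median of -0.036, 0.039, 0.17 and -0.26 (log2) in replicates 1 to 4. For all genes the median deviation was between -0.020 and 0.029. Among all genes above the serpentine receptor level it was 0.053 in replicate 3 and -0.021 in replicate 4. The deviations were widest for fog-3, at 0.74 in replicate 3 and -0.70 in replicate 4, and for her-1, at -0.60 in replicate 1 and 0.49 in replicate 4. The smallest range was that of fem-3, 0.21 between its lowest and its highest sample. The part that the brighter dim signal and sperm genes of replicate 4 have in these deviations was not tested.

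**Figure D4:**
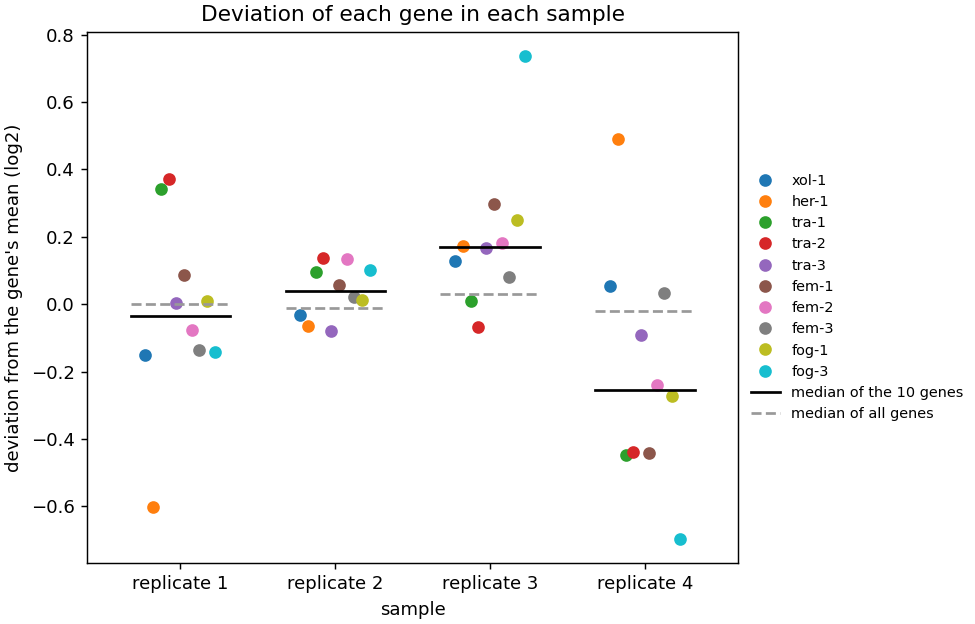
Deviation of each sex determination gene from its own mean over the 4 samples (log2), by sample, with the median of the 10 genes as a black line and that of all genes as a dashed grey line. The median of the 10 genes is at 0.17 in replicate 3 and at -0.26 in replicate 4, where her-1, xol-1 and fem-3 lie above 0.

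Other genes that act with the pathway, listed by name, were mostly above the serpentine receptor level. Of 39 such genes, 38 were measured and 36 passed it in each sample, against the 42% of all genes given above, and their median was at percentile 89.2, which was not tested against the core genes, whose own median was at 71.5 with transcripts averaged and at 87.1 with the highest transcript. Every gene of the X and autosome signals was above the level. These genes tell xol-1 how many X chromosomes and autosome sets are present. The X signals are the nuclear receptor gene sex-1 at 14.63 ± 0.16 (SD, n = 4), fox-1, which encodes an RNA-binding protein, at 13.98 ± 0.29, and the homeobox gene ceh-39 at 13.00 ± 0.28. The autosomal signals are the T-box gene sea-1 at 14.55 ± 0.06 and the zinc finger gene sea-2 at 12.60 ± 0.86. On the array, all 5 had a higher mean log2 signal than their target xol-1. The genes sdc-1, sdc-2 and sdc-3, which act between xol-1 and her-1, had levels of 14.03 ± 0.13, 13.70 ± 0.27 and 13.75 ± 0.12.

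All 21 measured regulators of the RNA or protein of tra-2, fem-3 and the fog genes were above the serpentine receptor level, with 16 of them above percentile 80 of all genes. The highest were the RNA-binding protein genes daz-1, at 14.87 ± 0.22 (SD, n = 4), gld-1, which represses translation of tra-2, at 14.76 ± 0.32, and atx-2, at 14.73 ± 0.36. The lowest were fbf-2 at 11.07 ± 0.14, fog-2, whose protein works with GLD-1, at 12.10 ± 0.27, and laf-1, an RNA helicase gene, at 12.41 ± 0.51. fbf-2 and fog-2 have close relatives whose RNA their probes may also detect. Of the ubiquitin ligase that acts with the FEM proteins, the scaffold gene cul-2 had a level of 13.52 ± 0.22, rbx-1 of 14.83 ± 0.05, elb-1 of 14.61 ± 0.19 and elc-1 of 10.65 ± 0.05. Downstream, tra-4, which encodes a partner of TRA-1, was at 14.03 ± 0.12. Among genes under the control of TRA-1, ceh-30, a homeobox gene of male neurons, was at 10.57 ± 0.46 and egl-1, a gene of programmed cell death, was at 9.17 ± 0.26, both above the serpentine receptor level. The genes mab-3 and dmd-3, for DM domain regulators of male development, were not above it, mab-3 with values of 7.89, 7.93, 8.13 and 8.04 and dmd-3 at 6.87 ± 0.47. In these 38 genes, replicate 3 gave the highest value for 9 of them and the lowest for 19, against 26.5% of all genes with their lowest value in that sample. The largest such gap among the named genes was that of sea-2, with log2 values of 13.16, 13.27, 11.39 and 12.57.

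**Figure D5:**
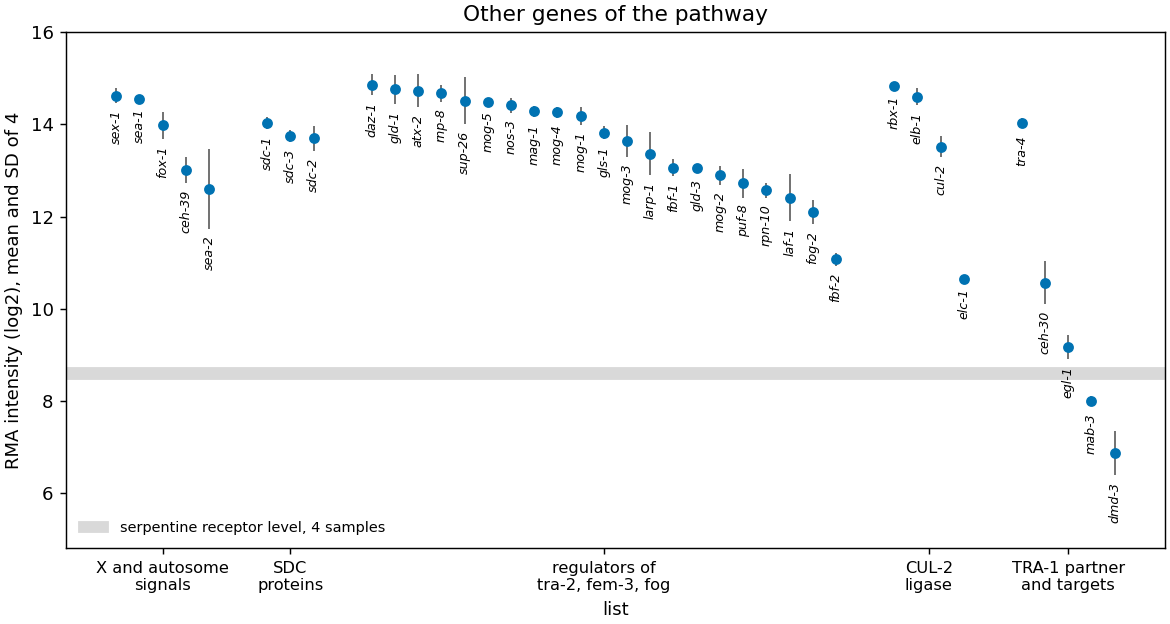
Mean log2 RMA intensity of the 38 other genes of the pathway, with the SD over the 4 samples as error bars, by list and in order of level, and the serpentine receptor level in grey. All but mab-3 and dmd-3 lie above the level, and sea-2 has the widest error bar.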

How the data were processed

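RNA of 4 N2 early embryo samples was labelled with Cy3 and hybridized to NimbleGen expression arrays. The authors quantile normalized the arrays, summarized the probes by RMA and deposited 1 intensity per transcript on a linear scale, which the value table of the whole series repeats (0 of 92720 values differ). For the software version, the annotation of the array and the build: not given in the sources used here. DNase treatment is given by the paper for some of the samples and by the labels for all, so samples were not divided by it. Intensities were converted to log2 with no pseudocount or filter, and transcripts of a gene were averaged. Gene symbols and chromosomes were taken from RefSeq (WBcel235), which matched 19380 of 20040 genes. Its coordinates served only to find overlapping genes. 1 listed gene, mog-6, was not matched by that name. The members and lists were chosen with earlier results of these data known. No test was run, as there is 1 group. Named genes are the 10 genes, all genes of other lists of up to 6 genes, the 3 highest and lowest of the longer list, and the lowest and highest gene of marker lists where named. The cuticle gene dpy-7 is named in addition, because it was above the level. Alternatives tried were linear averages, the median of the samples, omission of each replicate, the highest transcript, the series table, a second quantile normalization, a filter on dim genes, other percentiles (95 and 99) and fewer samples required for a call. The level, percentile and naming functions were tested on simulated data. Python 3.11.15, numpy 2.4.6, pandas 2.3.3 and matplotlib 3.10.9 were used.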

Additional observations from a re-analysis of the deposited data

Results flagged for a closer look

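In 2 of 46 sets of 4 values examined (the 10 genes, their single transcripts where there are several, and the named genes of the other lists), 1 sample lay far from the others by Dixon's criterion, which chance meets in about 1 of 20 groups and which 7.88% of all genes on the array met. The transcript C18A11_5b of xol-1 had a log2 value of 10.28 in replicate 3, against 9.98 to 10.03 in the other samples. sea-1, an autosomal signal upstream of xol-1, had a value of 14.47 in replicate 2, against 14.58 in each of the others, a gap of small size between values that nearly coincide.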

How the results depend on the processing

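The number of the 10 genes above the serpentine receptor level was 7 to 9 over 14 alternatives, and 8 to 9 when 1 replicate was left out. fog-3 was called without replicate 4, with 3 samples required or on the mean over samples, tra-1 was not called at the 99th percentile, and her-1 was called in none. Of the other pathway genes, 35 to 37 were called. The median of the samples, the series table and the filter on dim genes leave every call of these genes unchanged by construction. These alternatives therefore do not test either count. The median percentile of the 10 genes, 71.5, moved to 81.4 with linear averages, to 87.1 with the highest transcript and to 67.4 among genes above the serpentine receptor median. It was 70.9 to 72.3 without 1 replicate. Levels of single genes moved beyond their SD in 7 of 100 recomputed values, all with linear averages (tra-2, fem-1, fog-1) or the highest transcript (these and xol-1). Most of the 100 values could not have moved so far, so this share is no measure of stability. The series table and the filter on dim genes leave the levels unchanged. Leaving out 1 of 4 samples, or taking their median, cannot shift a level by more than its SD. Alternatives for the transcripts and for the extreme samples were added after seeing the data. Without replicate 4, the difference between the b and a transcripts of her-1 changed from 0.13 to -0.31, and it was -0.31 to 0.45 over the left-out replicates. Replicate 3 held the highest value of 6 genes in place of 7 when the highest transcript was taken. Since the arrays give no background signal, the absence of a transcript cannot be called. No paired analysis was possible because all samples belong to 1 group.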
